A study of Mus musculus with 6 samples.

Results

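The proteasome subunit genes were taken as the mouse genes whose symbol is Psm followed by a, b, c or d and a number, without the interferon-inducible Psmb8, Psmb9 and Psmb10, and with at least 60 counts summed over the 6 libraries. Of 27179 genes in the count files, 36 matched the symbol rule and 34 reached the minimum. Psma8 had 0 counts and Psmb11 had 6 counts, with 0 to 3 in each library, and neither was used further. All 34 members passed the filter on low counts that left 14069 genes for testing.

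Polyadenylated RNA was sequenced from 3 mouse embryonic fibroblast (MEF) lines, with 2 libraries per line. The CPN-/- line carries Cry1-/-, Cry2-/-, Per1-/-, Per2-/-, Nr1d1-/- and Nr1d2-/-, so it lacks the main repressors of the circadian clock. CPN-/-CRY1 and CPN-/-CRY2 are the same line after viral delivery of CRY1 or CRY2, and they carry the 6 deletions too. Each was grown from a single colony, all cells were untreated, and the viral promoter rather than the clock drives the CRY protein. The effect of CRY1 or CRY2 and the history of the colony that carries it cannot be told apart. The comparisons ask how mRNA levels differ when a CRY protein is present.

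The proteasome is the protease that degrades proteins marked with ubiquitin. Its core particle is a barrel with an outer alpha ring (Psma genes) that gates the entrance and an inner beta ring (Psmb genes) that holds the cutting sites. Its regulatory particle caps the barrel: a base of ATPases (Psmc genes) and scaffold subunits unfolds the substrate, and a lid (most Psmd genes) removes the ubiquitin chain. Subunit genes are known to be induced together by the transcription factor Nfe2l1 when proteasome activity falls.

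The 34 members were 14 core genes, with 7 in the alpha ring and 7 in the beta ring, and 20 regulatory genes. The regulatory genes were 6 ATPases, 3 base subunits without ATPase activity (Psmd1, Psmd2, Psmd4), 8 lid subunits and 3 assembly chaperones (Psmd5, Psmd9, Psmd10) that help to build the base and are not part of the finished particle. Levels are given as CPM, the counts of a gene scaled to a common library total, with library sizes corrected by trimmed mean of M values (TMM). The quasi-likelihood F-test of edgeR gave the p-values, which were adjusted by the method of Benjamini and Hochberg over all 14069 tested genes, and a gene was called when its adjusted p was under 0.05.

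The libraries held 25957409 to 36106949 counts. Cry1 was at 115 to 125 CPM in CPN-/-, 165 and 190 CPM in CPN-/-CRY1 and 48.3 and 51.0 CPM in CPN-/-CRY2. Cry2 was at 129 and 136 CPM in CPN-/-, 50.7 and 51.7 CPM in CPN-/-CRY1 and 349 and 351 CPM in CPN-/-CRY2. Each was thus highest in the line that expresses it, and counts over the whole gene do not show which exons were deleted. The 8 fibroblast markers summed to 11134 to 17732 CPM, although Thy1 reached at most 0.231 CPM, and Epcam was at 0 in every library. The libraries of CPN-/- differed from each other more than those of the other lines did: the chi-square of their counts per degree of freedom was 63.0, against 4.83 in CPN-/-CRY1 and 9.69 in CPN-/-CRY2. Each library was made from its own, independent RNA preparation. Whether these were of separate cultures is not given in the sources used here, so p-values measure the spread between these libraries, which may be technical.

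Promoter sequence is shown here because CRY proteins repress transcription at E-boxes and Nfe2l1 binds antioxidant response elements. RefSeq promoters (build GRCm38.p6, 250 bases before to 50 after the start) were at hand for 28 of the 34 members and 10411 tested genes. The E-box CACGTG was in 2 members, Psma4 and Psmd9, which is 7.14% of members against 11.6% of tested genes. The antioxidant response element core TGACNNNGC, read on both strands, was in 5 members (Psmb5, Psmb6, Psmc6, Psmd12 and Psmd9), or 17.9% against 16.7%. CCAAT, read on both strands, was in 11 members, or 39.3% against 43.3%. These shares describe letters in a window and were not tested. The E-boxes of Psma4 (chr9:54950679-54950764, plus strand) and Psmd9 (chr5:123228099-123228184, plus strand) are in capitals:
Psma4: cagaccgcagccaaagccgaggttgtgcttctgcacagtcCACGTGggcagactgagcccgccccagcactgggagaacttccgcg
Psmd9: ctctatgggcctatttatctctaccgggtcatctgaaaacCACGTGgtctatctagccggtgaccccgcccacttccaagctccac

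The antioxidant response element cores of the catalytic subunit genes Psmb5 (chr14:54618004-54618072, minus strand) and Psmb6 (chr11:70525318-70525356, plus strand) are in capitals, both upstream of the start:
Psmb5: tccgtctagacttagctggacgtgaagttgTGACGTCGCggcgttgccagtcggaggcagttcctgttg
Psmb6: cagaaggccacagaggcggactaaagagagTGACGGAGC

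For the 3 called genes on chromosome 3, which had the largest log2 fold changes in CPN-/-CRY1, and for Psmd8, the 100 bases before the start are shown. They are Psma5 (chr3:108256826-108256925, plus strand), Psmb4 (chr3:94886959-94887058, minus strand), Psmd4 (chr3:95042615-95042714, minus strand) and Psmd8 (chr7:29180674-29180773, minus strand). Psmd4 also has CCAAT matches at bases 2 and 21 after the start, which are not shown. Capitals mark its match at base -95, read here as the reverse complement of CCAAT:
Psma5: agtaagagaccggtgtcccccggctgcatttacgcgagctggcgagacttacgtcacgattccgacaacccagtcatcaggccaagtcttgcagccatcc
Psmb4: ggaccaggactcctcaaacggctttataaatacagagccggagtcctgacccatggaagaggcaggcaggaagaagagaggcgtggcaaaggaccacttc
Psmd4: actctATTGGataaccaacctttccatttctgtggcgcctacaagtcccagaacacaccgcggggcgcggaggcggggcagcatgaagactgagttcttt
Psmd8: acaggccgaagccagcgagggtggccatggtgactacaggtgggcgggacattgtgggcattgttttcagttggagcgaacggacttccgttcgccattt

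The members with an E-box were Psma4, with log2 fold changes against CPN-/- of -0.33 (CPN-/-CRY1) and -0.29 (CPN-/-CRY2), and Psmd9, with -0.51 and -0.40. The 5 members with an antioxidant response element core had median log2 fold changes of -0.47 (CPN-/-CRY1) and -0.34 (CPN-/-CRY2), beside -0.33 and -0.26 over the other 29 members. The values of the 5 ran from -0.51 to -0.19 in CPN-/-CRY1 and lay inside the range of the other members, -0.95 to 0.24.

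Levels between genes were compared as CPM per kilobase (kb) of the longest coding transcript. The core genes had a median of 190 CPM per kb (range 21.3 to 226, 14 genes) and the regulatory genes a median of 101 CPM per kb (range 18.2 to 203, 20 genes). The highest level per length was that of Psmb7, the trypsin-like catalytic subunit, with 212 and 317 CPM per kb in the CPN-/- libraries, 202 and 194 in those of CPN-/-CRY1 and 207 and 226 in those of CPN-/-CRY2. Psmb6, the caspase-like catalytic subunit, was next with 211 and 334 CPM per kb in CPN-/-, 199.96 and 186 in those of CPN-/-CRY1 and 198 and 228 in those of CPN-/-CRY2, and the pair did not differ beyond the spread of their libraries. The third catalytic gene, Psmb5, which encodes the chymotrypsin-like subunit, averaged 62.0 CPM per kb. The lowest level per length was that of the chaperone gene Psmd9, with 18.9 and 25.6 CPM per kb in CPN-/-, 16.5 and 14.7 in those of CPN-/-CRY1 and 15.9 and 17.8 in those of CPN-/-CRY2. Psma3, next to it with a mean of 21.3 CPM per kb, overlapped it in its range over libraries. Of the members, 9 share a stretch of at least 95% identity over at least 150 bases with another annotated gene, among them Psma5, and how such reads were counted is not given in the sources used here.

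In the CPN-/- line the members stood higher in replicate 2 than in replicate 1. The 34 members summed to 8396 CPM in CPN-/- replicate 2 and to 6031 to 6470 CPM in the other 5 libraries, CPN-/- replicate 1 included. Within CPN-/-, 32 of 34 members were higher in replicate 2, by a median of 0.41 on the log2 scale, with 0.52 over the core genes and 0.37 over the regulatory genes. The replicates of CPN-/-CRY1 differed by a median of -0.02 and those of CPN-/-CRY2 by 0.09. Each comparison with CPN-/- rests on the mean of those unequal libraries, and the counts of called members and the particle medians are given with and without each. Single genes moved too: in CPN-/-CRY1, the log2 fold change without CPN-/- replicate 1 and without replicate 2 was -0.74 and -0.03 for Psmb5, -0.79 and -0.13 for Psmb6, and -0.68 and -0.10 for Psmb7.

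**Figure D1:**
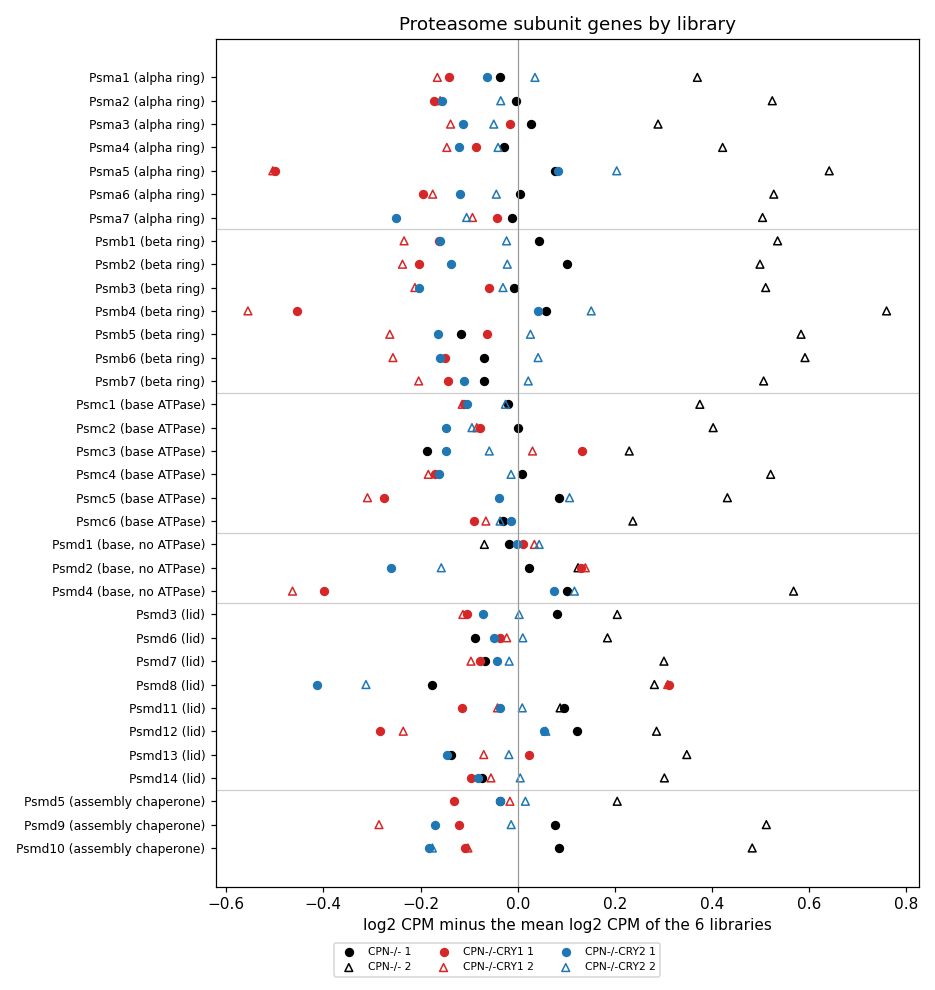
Each row is a proteasome subunit gene with its role, and each symbol is a library: the horizontal axis is the log2 CPM of the gene minus its mean over the 6 libraries. CPN-/- replicate 2 (open black triangles) lies farthest right for most genes. CPN-/-CRY1 (red) lies farthest left for Psma5, Psmb4, Psmd4, Psmc5 and Psmd12, and also for other genes, such as Psma1, Psmb2 and Psmc4.

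In CPN-/-CRY1 cells, 30 of the 34 members had a log2 fold change below 0 against CPN-/-, beside 50.7% of all tested genes. Of these 30 members, 6 fell: the core genes Psma5, Psmb4 and Psmb2 and the regulatory genes Psmd4, Psmc5 and Psmd12. None rose. Among all tested genes 13.1% were called lower and 11.2% higher (24.3% in all), so 6 of 34 is near the share among all genes. The median log2 fold change was -0.44 over the 14 core genes and -0.21 over the 20 regulatory genes, beside -0.01 over all tested genes. At an unadjusted p under 0.05 there were 14 members, or 41.2%, against 40.3% of all tested genes. In 25 members both CPN-/-CRY1 libraries lay below both CPN-/- libraries, and in 3 both lay above, where such separation held for 34% and 32.9% of all tested genes.

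All 7 alpha ring genes were below 0, with a median of -0.34 and a range of -0.89 to -0.24, and 1 of them was called. Psma5, an alpha ring subunit (chr3:108256926-108279952), was at 71.1 and 105 CPM in CPN-/-, 47.7 and 47.6 CPM in CPN-/-CRY1 and 71.4 and 77.7 CPM in CPN-/-CRY2. Both CPN-/-CRY1 libraries lay below the other 4. The log2 fold change of Psma5 in CPN-/-CRY1 against CPN-/- was -0.89 ± 0.18 (SE, adjusted p = 0.0152 by edgeR's quasi-likelihood test). Psma7 was at 168 and 240 CPM in CPN-/-, 164 and 158 CPM in CPN-/-CRY1 and 142 and 157 CPM in CPN-/-CRY2. All 4 CRY libraries lay below both CPN-/- libraries, and Psma7 was not called (log2 fold change -0.34 ± 0.17, adjusted p = 0.181 by edgeR).

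The 7 beta ring genes were also all below 0, with a median of -0.50 and a range of -0.95 to -0.41, and 2 were called. Psmb4, a beta ring subunit without a cutting site (chr3:94884324-94886958), was at 256 and 416 CPM in CPN-/-, 179 and 167 CPM in CPN-/-CRY1 and 253 and 273 CPM in CPN-/-CRY2. Its CPN-/-CRY1 libraries were the lowest 2 of the 6, with a log2 fold change against CPN-/- of -0.95 ± 0.21 (adjusted p = 0.0208 by edgeR). Psmb2, also without a cutting site, is on chromosome 4 (chr4:126677637-126709715) and was at 167 and 220 CPM in CPN-/-, 135 and 132 CPM in CPN-/-CRY1 and 142 and 154 CPM in CPN-/-CRY2. Its CPN-/-CRY1 libraries again lay below the other 4, and its log2 fold change was -0.53 ± 0.14 (adjusted p = 0.0369 by edgeR). Psmb1 was at 288 and 405 CPM in CPN-/-, 249.99 and 238 CPM in CPN-/-CRY1 and 250.4 and 275 CPM in CPN-/-CRY2, and its log2 fold change of -0.51 ± 0.17 was not called (adjusted p = 0.0651 by edgeR).

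The 3 catalytic genes were not called in any comparison. Psmb5 was at 50.4 and 81.9 CPM in CPN-/-, 52.3 and 45.5 CPM in CPN-/-CRY1 and 48.8 and 55.7 CPM in CPN-/-CRY2, so that its CPN-/- replicate 1 lay among the CRY libraries and replicate 2 above all. Psmb6 was at 169 and 267 CPM in CPN-/-, 160 and 148 CPM in CPN-/-CRY1 and 158 and 182 CPM in CPN-/-CRY2. Psmb7 was at 246 and 368 CPM in CPN-/-, 234 and 225 CPM in CPN-/-CRY1 and 240 and 263 CPM in CPN-/-CRY2. For Psmb6 and Psmb7 the CPN-/-CRY1 libraries lay below both CPN-/- libraries, while a CPN-/-CRY2 library lay between them. The log2 fold changes in CPN-/-CRY1 were -0.43 ± 0.22 for Psmb5 (adjusted p = 0.186), -0.50 ± 0.21 for Psmb6 (adjusted p = 0.120) and -0.42 ± 0.18 for Psmb7 (adjusted p = 0.133), all by edgeR.

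Of the 6 ATPase genes of the base, 5 were below 0 in CPN-/-CRY1 and 1 was called. Psmc5 (chr11:106256185-106263112) was at 189 and 241 CPM in CPN-/-, 148 and 144 CPM in CPN-/-CRY1 and 174 and 192 CPM in CPN-/-CRY2. Its CPN-/-CRY1 libraries lay below the other 4, with a log2 fold change against CPN-/- of -0.56 ± 0.13 (adjusted p = 0.0262 by edgeR). Psmc3 was the ATPase gene above 0, at 0.05 ± 0.15 (adjusted p = 0.833 by edgeR).

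The base subunits without ATPase activity went apart. Psmd4, a ubiquitin receptor (chr3:95032688-95042614), was at 181 and 249.99 CPM in CPN-/-, 128 and 122 CPM in CPN-/-CRY1 and 178 and 183 CPM in CPN-/-CRY2. Its CPN-/-CRY1 libraries were below the other 4, and the log2 fold change of -0.78 ± 0.15 had the smallest adjusted p of the members (0.0141 by edgeR). Psmd2, a large scaffold subunit, was at 607 and 651 CPM in CPN-/-, 654 and 658 CPM in CPN-/-CRY1 and 498 and 535 CPM in CPN-/-CRY2. Its CPN-/-CRY2 libraries were the lowest, and its log2 fold change in CPN-/-CRY1 was 0.06 ± 0.10 (adjusted p = 0.674 by edgeR). Psmd1, the other scaffold, was flat over the lines at 339 to 366 CPM.

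In the lid, 7 of 8 genes were below 0 in CPN-/-CRY1, with a median of -0.19, and 1 was called. Psmd12 (chr11:107479528-107498036) was at 218 and 245 CPM in CPN-/-, 165 and 170 CPM in CPN-/-CRY1 and 208 and 209 CPM in CPN-/-CRY2. The CPN-/-CRY1 libraries of Psmd12 were below the other 4, with a log2 fold change of -0.47 ± 0.10 (adjusted p = 0.0173 by edgeR). Psmd14, the deubiquitinase that removes the chain, was at 198 and 257 CPM in CPN-/-, 195 and 201 CPM in CPN-/-CRY1 and 197 and 209 CPM in CPN-/-CRY2, with the lines overlapping and a log2 fold change of -0.20 ± 0.14 (adjusted p = 0.299 by edgeR). The lid gene above 0 was Psmd8, described with the comparison of the CRY lines.

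The 3 assembly chaperone genes were below 0 and not called. Psmd9 was at 49.1 and 66.4 CPM in CPN-/-, 42.8 and 38.2 CPM in CPN-/-CRY1 and 41.4 and 46.1 CPM in CPN-/-CRY2. All 4 CRY libraries of Psmd9 lay below both CPN-/- libraries, with a log2 fold change in CPN-/-CRY1 of -0.51 ± 0.16 (adjusted p = 0.0583 by edgeR).

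The count of called members in CPN-/-CRY1 depended on which libraries entered. Without CPN-/- replicate 2 it was 12 lower and 2 higher, where 22.2% of all tested genes were called lower and 22.0% higher. Without CPN-/- replicate 1 it was 30 lower and 0 higher, where the shares of all genes were 31.3% and 31.6%. Without CPN-/-CRY1 replicate 1 or replicate 2 it was 0, where 4.74% and 4.64% of all genes were called in either direction. Without CPN-/-CRY2 replicate 1 or replicate 2, fewer members, and a smaller share of all tested genes, were called than with all 6 libraries. In both fits the core and regulatory medians were -0.44 and -0.20. The core and regulatory medians were -0.12 and -0.06 without CPN-/- replicate 2, and -0.70 and -0.37 without CPN-/- replicate 1. With 1 library left in a line, its spread is taken from the other lines. Psma5, Psmb4 and Psmd4 kept the largest sizes: without CPN-/- replicate 2 their log2 fold changes were -0.57, -0.56 and -0.53, and without replicate 1 they were -1.14, -1.26 and -0.998. For Psmb2, Psmc5 and Psmd12 the values were -0.31, -0.37 and -0.37 without replicate 2, and -0.72, -0.72 and -0.55 without replicate 1.

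In CPN-/-CRY2 cells, 33 of the 34 members were below 0 against CPN-/-, beside 50.9% of all tested genes. No member was called by edgeR's quasi-likelihood test. DESeq2 also called 0. Among all tested genes 4.08% were called lower and 2.58% higher (6.66% in all). At an unadjusted p under 0.05 there were 8 members, or 23.5%, against 24.4% of all tested genes, and the smallest adjusted p was 0.107, for Psmd10. The median log2 fold change was -0.35 over the core genes and -0.19 over the regulatory genes. Both CPN-/-CRY2 libraries lay below both CPN-/- libraries in 18 members and above in 1, against 27.2% and 28% of all tested genes.

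The members farthest from 0 in CPN-/-CRY2 were spread over both particles. Psmd10, a base chaperone also known as gankyrin, was at 41.3 and 54.5 CPM in CPN-/-, 36.2 and 36.3 CPM in CPN-/-CRY1 and 34.4 and 34.5 CPM in CPN-/-CRY2. All 4 CRY libraries of Psmd10 lay below CPN-/-, and its log2 fold change for CPN-/-CRY2 was -0.48 ± 0.14. Psma7, with the values given above, had -0.44 ± 0.17 (adjusted p = 0.175 by edgeR), Psmb1 -0.40 ± 0.16 (adjusted p = 0.198) and Psmb2 -0.39 ± 0.14 (adjusted p = 0.161).

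Those medians moved with CPN-/- replicate 2 as well. Without it, 19 of 34 members were below 0 in CPN-/-CRY2, the core median was -0.06 and the regulatory median -0.04, and 2 members were called lower, beside 10.9% of all tested genes. Without CPN-/- replicate 1, 32 members were called lower, beside 28% of all tested genes, and the medians were -0.61 and -0.34.

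**Figure D2:**
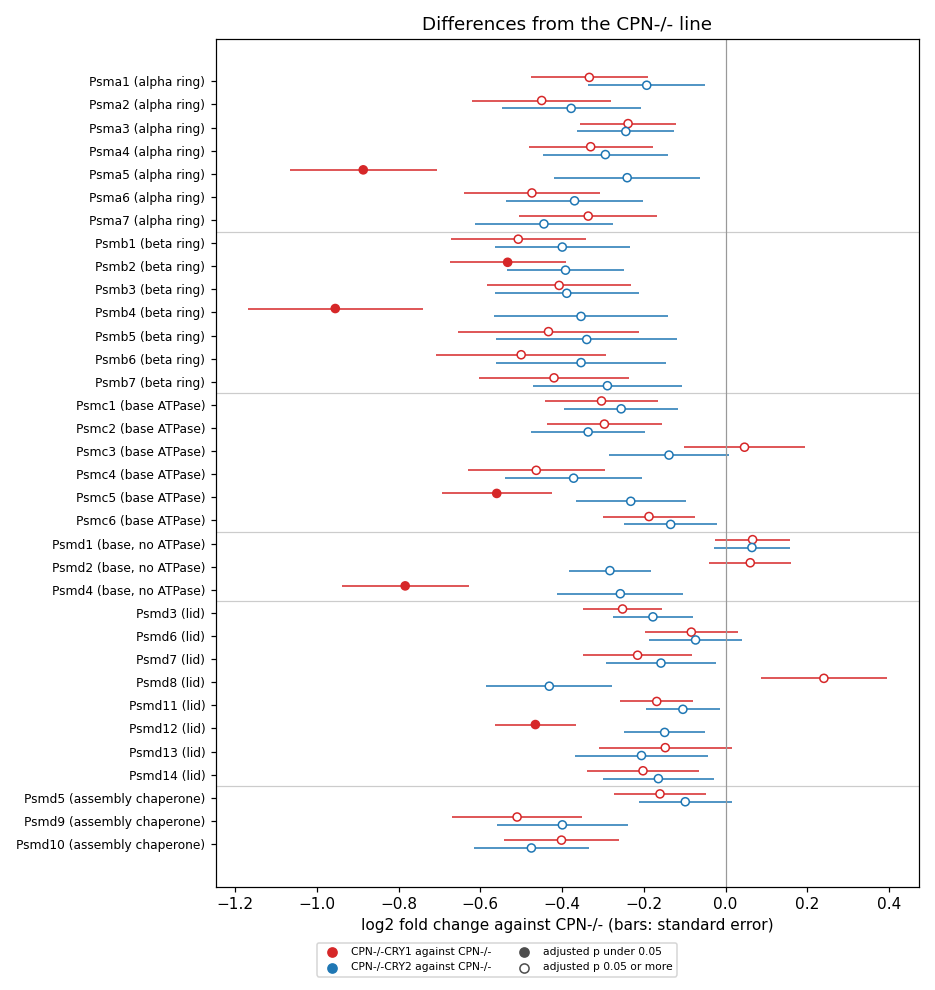
Each row is a proteasome subunit gene, and points are log2 fold changes against CPN-/- with bars of 1 standard error, in red for CPN-/-CRY1 and blue for CPN-/-CRY2. Filled points have an adjusted p under 0.05: there are 6 in red, all left of 0, and 0 in blue.

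The CRY lines were then compared directly, which does not use the level in CPN-/-. Of the members, 1 was called higher with CRY1 than with CRY2 and 0 lower, beside 7.72% and 8.57% of all tested genes (16.3% in all). Medians were -0.11 over the core genes and -0.05 over the regulatory genes. The called gene was Psmd8, a lid subunit (chr7:29174187-29180673), at 160 and 220 CPM in CPN-/-, 224.4 and 224.0 CPM in CPN-/-CRY1 and 136 and 146 CPM in CPN-/-CRY2. Its CPN-/-CRY1 libraries lay above all others and its CPN-/-CRY2 libraries below, with a log2 fold change between the CRY lines of 0.67 ± 0.15 (adjusted p = 0.0289 by edgeR). Against CPN-/- the log2 fold changes of Psmd8 were 0.24 (CPN-/-CRY1) and -0.43 (CPN-/-CRY2), neither called. Without any single CRY library the difference was 0.62 to 0.72 and not called.

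The next members by size were the 3 on chromosome 3. Psma5 had a log2 fold change between the CRY lines of -0.65 ± 0.18 (adjusted p = 0.0540 by edgeR), Psmb4 of -0.60 ± 0.21 (adjusted p = 0.106) and Psmd4 of -0.53 ± 0.15 (adjusted p = 0.0633). Psmd2 stood at 0.34 ± 0.10 (adjusted p = 0.0612). In all 4, the libraries of the CRY lines did not overlap. Over the 34 members this held for 17 in the lower and 6 in the higher direction, beside 36.9% and 36.4% of all tested genes. Between the CRY lines 25 of the 34 members were below 0, beside 50.7% of all tested genes. The shared estimate of spread weighed on this comparison: fitted on the 4 CRY libraries alone, 7 members were called lower and 3 higher, beside 24.5% and 25.2% of all tested genes, Psma5, Psmb4 and Psmd4 among the former and Psmd8 among the latter.

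Transcript length was examined because the libraries of CPN-/- differed by length. The core transcripts had a median length of 1162.5 bases and the regulatory ones 1887 bases, against 3033.5 bases over the 13246 tested genes with a length. Over those genes, Spearman's correlation of length with CPN-/- replicate 2 minus replicate 1 was -0.66, and over the 34 members -0.62. It was 0.18 over all genes for the CPN-/-CRY1 replicates and -0.27 for those of CPN-/-CRY2. Short transcripts were thus higher in CPN-/- replicate 2. Genes share their libraries, so these correlations are descriptions with no test.

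The log2 fold changes against CPN-/- also ran with length. For CPN-/-CRY1, Spearman's correlation was 0.36 over all genes and 0.52 over the members, and for CPN-/-CRY2 it was 0.41 and 0.40. Between the CRY lines it was 0.07 over all genes. With each library's trend on length given to the model as an offset, the correlations over all genes were 0.04, 0.04 and 0.01.

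With the length offset the difference between the particles became smaller. The core median minus the regulatory median went from -0.23 to -0.08 in CPN-/-CRY1 against CPN-/-, from -0.16 to -0.10 in CPN-/-CRY2 against CPN-/-, and from -0.06 to -0.02 between the CRY lines. The core medians were then -0.17 (CPN-/-CRY1) and -0.15 (CPN-/-CRY2), and the regulatory medians -0.09 and -0.04, beside 0.03 over all tested genes in both. Below 0 were all 14 core genes for CPN-/-CRY1 and 13 of 14 for CPN-/-CRY2, beside 46.2% and 45% of all tested genes. With the length offset and without CPN-/- replicate 2, 7 of 14 core genes were below 0 in each CRY line. This fit was added after the data were seen. Its core medians were -0.01 in both lines and its regulatory medians 0.02 and 0.03, beside 0.057 and 0.055 over all tested genes.

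Members called with the length offset were 8 lower and 1 higher in CPN-/-CRY1, where 17.6% of all tested genes were called lower and 22.2% higher (39.8% in all). The 6 members called lower without the offset were among the 8, joined by Psmb1 (log2 fold change -0.33, adjusted p = 0.0429 by edgeR) and Psmd9 (-0.42, adjusted p = 0.0319). The higher one was Psmd8 (0.41, adjusted p = 0.0118 by edgeR). In CPN-/-CRY2 the offset left 1 member called lower, Psmd10 (-0.28, adjusted p = 0.0466 by edgeR), and 0 called higher, beside 7.26% and 10.2% of all tested genes (17.5% in all). Between the CRY lines 5 were called lower, beside 15.7% of all tested genes, and 2 higher, beside 16.3% (32% in all). The 5 were Psma5 (-0.59), Psmb4 (-0.54), Psmd4 (-0.51), Psmc5 (-0.27) and Psmd12 (-0.30), and the 2 were Psmd8 (0.68) and Psmd2 (0.33).

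**Figure D3:**
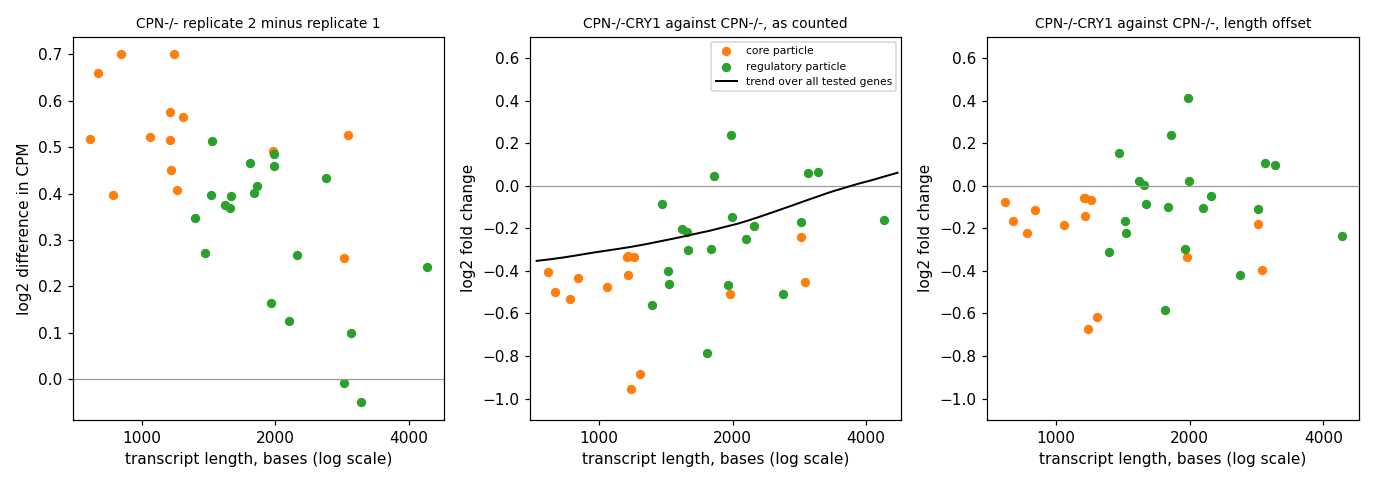
Each point is a proteasome subunit gene, orange for the core and green for the regulatory particle, against the length of its longest coding transcript on a log scale. The left panel is the log2 difference between the CPN-/- libraries and falls with length. The middle panel is the log2 fold change in CPN-/-CRY1 with the trend over all tested genes as a line, and the right panel is the same with the length offset, where the core and regulatory medians are -0.17 and -0.09.

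Core minus regulatory was also taken within each library, as the mean log2 CPM of the 14 core genes minus that of the 20 regulatory genes. It was -0.12 and 0.09 in CPN-/-, -0.21 and -0.27 in the CPN-/-CRY1 libraries and -0.14 and -0.09 in those of CPN-/-CRY2. The CPN-/-CRY1 libraries were the lowest, while the CPN-/- and CPN-/-CRY2 libraries overlapped. The line means were -0.01 ± 0.15 in CPN-/-, -0.24 ± 0.04 for CPN-/-CRY1 and -0.11 ± 0.04 in CPN-/-CRY2 (SD, n = 2). With the length trend taken out of each library the values were -0.10 and -0.01 in CPN-/- and -0.18 and -0.23 in the CPN-/-CRY1 libraries. They were -0.13 and -0.10 in those of CPN-/-CRY2, so that the CPN-/-CRY1 libraries stayed lowest. These are means over genes, and the core mean includes Psma5 and Psmb4, at -0.59 and -0.54 between the CRY lines with the length offset. As medians with that offset, the particle difference between the CRY lines was -0.017, and -0.0093 without members on chromosomes 3, 15, 16 and 19. For CPN-/-CRY1 against CPN-/- these values were -0.078 and -0.059.

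**Figure D4:**
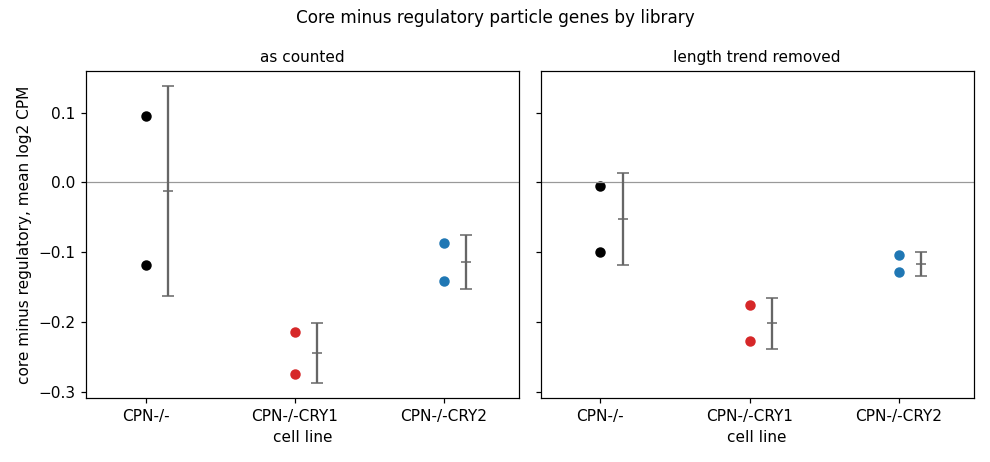
Each point is a library: the vertical axis is the mean log2 CPM of the 14 core genes minus that of the 20 regulatory genes, as counted on the left and with the length trend removed on the right, with the mean and SD of each line (n = 2) beside its points. Both CPN-/-CRY1 libraries lie below the other 4 in both panels. The core mean includes Psma5 and Psmb4 on chromosome 3.

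Of the 6 members called in CPN-/-CRY1, 5 lie where their neighbours were lower too. Neighbours were the tested genes within 1 Mb of the member, and 50.7% of all tested genes were below 0 in CPN-/-CRY1. Psma5 had 34 neighbours with a median log2 fold change of -0.48 against CPN-/-, and 27 of them were below 0. Psmb4 had 44 neighbours with a median of -0.34 (38 below 0), and Psmd4, which lies close to it and shares neighbours, had 49 with a median of -0.35 (43 below 0). On distal chromosome 11, Psmc5 had 28 neighbours with a median of -0.36 (24 below 0), and Psmd12 had 18 with a median of -0.24 (13 below 0). Some members that were not called had lower neighbours too. Psmc2 had 15 with a median of -0.24 (11 below 0), and Psmd1 had 12 with a median of -0.22 (8 below 0). Chromosome 3 as a whole had a median of -0.28 over 638 tested genes, of which 33.5% were called lower.

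Between the CRY lines the neighbours of these 5 genes were lower in CPN-/-CRY1 almost throughout. The count below 0 was 33 of 34 for Psma5, 41 of 44 for Psmb4, 46 of 49 for Psmd4, 28 of 28 for Psmc5 and 18 of 18 for Psmd12. Of all tested genes, 50.7% were below 0 between the CRY lines. Psmd2 on chromosome 16 had 25 neighbours with a median of 0.34, equal to its own value. Psmb2 and Psmd8 stood apart from their neighbours, whose medians in CPN-/-CRY1 against CPN-/- were 0.09 over 26 genes and -0.01 over 53 genes. So did other members, such as Psmb7 (-0.42, neighbour median 0.16 over 10 genes) and Psma1 (-0.33, neighbour median 0.24 over 7 genes). Between the CRY lines the neighbours of Psmd8 had a median of 0.02. The part of the chromosomal position in these results was not tested. Chromosomes 3, 15, 16 and 19 had the medians farthest from 0 in CPN-/-CRY1 against CPN-/- in these same data (-0.28, -0.36, 0.27 and 0.31). Leaving out the members on them drops Psma5, Psmb4, Psmd4 and Psmd2 and keeps Psmc5 and Psmd12, so position is not set aside. The core minus regulatory difference was then -0.22, -0.19 and -0.05 in the 3 comparisons as counted. With the length offset it was -0.06, -0.13 and -0.01.

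**Figure D5:**
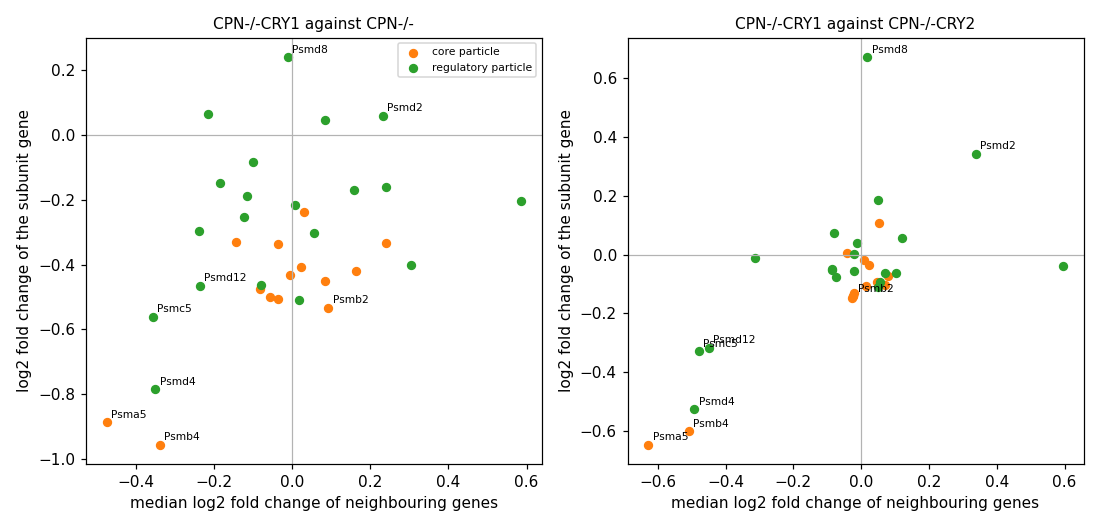
Each point is a proteasome subunit gene: the horizontal axis is the median log2 fold change of the tested genes within 1 Mb of it, and the vertical axis is its own log2 fold change. Psma5, Psmb4, Psmd4, Psmc5 and Psmd12 lie to the lower left in both comparisons, while Psmd8 lies high at a neighbour median near 0.

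Other genes of the pathway were taken as 35 genes in 7 lists, of which 34 were tested and Paaf1 was not analysed here. In CPN-/-CRY1 against CPN-/-, 3 of the 34 were called lower and 0 higher, with a median of -0.19, beside the 13.1% and 11.2% of all tested genes given above. In CPN-/-CRY2 against CPN-/-, 2 were called lower and 0 higher, with a median of -0.11, beside 4.08% and 2.58%. Between the CRY lines, 2 were called lower and 2 higher, beside 8.57% and 7.72%.

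The 3 called in CPN-/-CRY1 came from different lists. Psme3, a nuclear activator of the core particle on chromosome 11, was at 179 and 170 CPM in CPN-/-, 122 and 121 CPM in CPN-/-CRY1 and 163 and 170 CPM in CPN-/-CRY2, and fell in CPN-/-CRY1 with a log2 fold change of -0.52 ± 0.09 (adjusted p = 0.00908 by edgeR). Its CPN-/-CRY1 libraries were below the other 4, and here the CPN-/- libraries lay close together. Psmg3, a chaperone of core assembly, was at 28.7 and 41.2 CPM in CPN-/-, 23.0 and 22.8 CPM in CPN-/-CRY1 and 25.2 and 29.1 CPM in CPN-/-CRY2 (log2 fold change in CPN-/-CRY1 -0.61 ± 0.18, adjusted p = 0.0486 by edgeR). Ubqln4, a shuttle that brings ubiquitinated proteins to the proteasome, was at 83.1 and 76.3 CPM in CPN-/-, 62.0 and 63.5 CPM in CPN-/-CRY1 and 87.6 and 83.5 CPM in CPN-/-CRY2 (log2 fold change in CPN-/-CRY1 -0.35 ± 0.10, adjusted p = 0.0401 by edgeR). None of the 3 was called without either CPN-/-CRY1 library, with an adjusted p by edgeR of up to 0.118 for Psme3, 0.235 for Psmg3 and 0.246 for Ubqln4. Psmg3 and Ubqln4 were also not called without either CPN-/-CRY2 library, and Psmg3 was -0.84 without CPN-/- replicate 1 and -0.32 without replicate 2.

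The 2 called in CPN-/-CRY2 were interferon-inducible beta subunits, which replace catalytic subunits in the immunoproteasome. Psmb8 was at 3.99 and 5.64 CPM in CPN-/-, 4.76 and 3.80 CPM in CPN-/-CRY1 and 0.367 and 0.148 CPM in CPN-/-CRY2. Its CPN-/-CRY2 libraries stood far below the other 4, with a log2 fold change against CPN-/- of -4.19 ± 0.39 (adjusted p = 0.00190 by edgeR). Psmb9 was at 2.58 and 2.49 CPM in CPN-/-, 1.88 and 1.36 CPM in CPN-/-CRY1 and 0.661 and 0.556 CPM in CPN-/-CRY2, and its log2 fold change for CPN-/-CRY2 was -2.05 ± 0.26 (adjusted p = 0.00561 by edgeR). Without CPN-/-CRY2 replicate 1 or replicate 2, Psmb9 had an adjusted p of 0.0603 and 0.0746 by edgeR, while Psmb8 was called in both fits (0.0160 and 0.0244). Psmb5 and Psmb6, the constitutive counterparts of Psmb8 and Psmb9, were not called in CPN-/-CRY2, at -0.34 ± 0.22 and -0.35 ± 0.21 (adjusted p = 0.368 and 0.326 by edgeR). Without the length offset, none of the 5 transcription factor and processing genes, Nfe2l1, Nfe2l2, Ddi2, Ngly1 and Vcp, was called in any of the 3 comparisons. Neither was any of the 6 ubiquitin and ubiquitin-activating genes. With the offset, Nfe2l1 (adjusted p = 0.00461 by edgeR) and Uba6 (adjusted p = 0.0154) were called in CPN-/-CRY1 against CPN-/-, beside 39.8% of all tested genes. Between the CRY lines Nfe2l2 was called (adjusted p = 0.0285 by edgeR), beside 32%. Without the offset the log2 fold changes of these 3 genes were -0.25, 0.70 and -0.22.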

How the data were processed

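The deposited files hold raw counts per Entrez gene, 1 file per library. Per the labels, libraries were made with a stranded RNA kit, and the submitters' processing notes name STAR, featureCounts and mm10. The counting annotation, strand setting and treatment of multiply mapped reads are not given in the sources used here.

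Counts were fitted with edgeR 4.0.16 (R 4.3.3; TMM, filterByExpr minimum count 10, robust quasi-likelihood, two-sided) over all 6 libraries with the cell line as the only term. Alternatives used other scalings and filters, DESeq2 1.42.0 and left-out libraries. Symbols came from RefSeq, matching 13343 of 14069 tested genes. Transcript lengths came from the longest GENCODE M21 transcript of each gene (coding ones first), for 94.2% of tested genes. The length offset was a loess trend (span 0.5) of each library on log2 length. Shared sequence was searched with BLAST+ 2.17.0. Scripts were tested on simulated data.

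Values in every library are given for the 3 members of each particle with the largest log2 fold change in each comparison, the catalytic genes, Psmd4, Psmd14 and the highest and lowest per length. Psmd12 and the other pathway genes that were called are also given. The members and lists were chosen with earlier results of these data known.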

Additional observations from a re-analysis of the deposited data

Results flagged for a closer look

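The 2 CRY lines, CPN-/-CRY1 and CPN-/-CRY2, differed by the direct test between them for 1 subunit gene and 4 other pathway genes. Psmd8 was higher in CPN-/-CRY1 by 0.67 on the log2 scale, and Psmb8 and Psmb9 were higher by 4.03 (adjusted p = 0.00127 by edgeR) and 1.42 (adjusted p = 0.0154). Psme3 and Ubqln4 had log2 fold changes of -0.45 (adjusted p = 0.0181 by edgeR) and -0.45 (adjusted p = 0.0220). Psmb8 passed the threshold without each library in turn (adjusted p at most 0.0145), while Psmb9, Psme3 and Ubqln4 each had an adjusted p of up to 0.139, 0.196 and 0.211 without 1 CRY library. Psmd8 and its neighbours are described above, and no explanation was tested.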

How the results depend on the processing

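Scaling by DESeq2 size factors, library size or upper quartile, and a minimum of 10 counts in every library, left the counts of called members as they were. The replicate numbers did not pair the libraries (correlations of deviations -0.08, 0.14 and -0.03). With the replicate block, 7 members were called in CPN-/-CRY1 against CPN-/-, 0 in CPN-/-CRY2 against CPN-/- and 2 between the CRY lines. The shares of all tested genes were 24.6%, 6.94% and 15.6%. Between the CRY lines the count was 3 with no filter, 5 by DESeq2, 7 with either offset, 10 with only those 4 libraries and 0 at an adjusted p under 0.01. Of all tested genes 13% were called with no filter, 18.1% by DESeq2, 32% with the length offset and 32.9% with length and GC. With only those 4 libraries the share was 49.7%. In each of these fits the share of the members was smaller. In CPN-/-CRY1 the count was 9 by DESeq2 and 9 with no filter, beside 27.1% and 19.1% of all tested genes. There it was 2 with only 4 libraries, beside 12.9%, and 0 at an adjusted p under 0.01. In CPN-/-CRY2 it was 1 with either offset, beside 17.5% (length) and 17.6% (length and GC).

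The length offset gave a core median of -0.17 and a core minus regulatory difference of -0.078 in CPN-/-CRY1, and a regulatory median of -0.044 in CPN-/-CRY2. Length with GC gave -0.18, -0.085 and -0.060. Of the 34 members, 8, 7 and 11 were above 0 with the length offset in CPN-/-CRY1, in CPN-/-CRY2 and between the CRY lines, and 8, 4 and 18 with length and GC. Among the genes whose values are given in every library, those that turned above 0 with the length offset were Psmd14 (0.021) and Psmb8 (0.049) in CPN-/-CRY1, Psmd14 (0.023), Psmd12 (0.0065) and Psme3 (0.015) in CPN-/-CRY2, and Psmb5 (0.0029) between the CRY lines. With length and GC, those that turned among the same genes were Psmd14 (0.023) and Psmb8 (0.031) in CPN-/-CRY1, Psme3 (0.018) in CPN-/-CRY2 and Psmd14 (0.072) between the CRY lines.

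The length offset combined with a left-out CPN-/- library was chosen after seeing the data. Without replicate 1 it called 26 members in CPN-/-CRY1, 23 in CPN-/-CRY2 and 9 between the CRY lines, beside 56.4%, 44.0% and 50.6% of all tested genes. Of the genes given in every library, it turned Psme3 (0.061) in CPN-/-CRY2 and Psmb5 (0.011) and Psmd14 (0.0010) between the CRY lines above 0. Without replicate 2 it called 12, 2 and 9, beside 47.1%, 26.8% and 50.1%, and 19, 19 and 13 of the 34 members were above 0. The core medians were -0.014 and -0.011, the regulatory medians 0.019 and 0.026, and the differences -0.033 and -0.037. Over all tested genes the medians were 0.057 and 0.055. Of the genes given in every library, those that turned above 0 were then Psmb5 (0.097), Psmb6 (0.011), Psmb7 (0.023), Psmd14 (0.11), Psma7 (0.072) and Psmb8 (0.21) in CPN-/-CRY1. In CPN-/-CRY2 they were Psmb5 (0.082), Psmb6 (0.035), Psmb7 (0.079), Psmd4 (0.077), Psmd14 (0.11), Psmb4 (0.091), Psma5 (0.12), Psmc5 (0.013) and Psmd12 (0.022), and between the CRY lines Psmb5 (0.015) and Psmd14 (0.0014).

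Leaving out 1 library at a time, called members ranged from 0 to 30 in CPN-/-CRY1, 0 to 32 in CPN-/-CRY2 and 0 to 11 between the CRY lines. The share of all tested genes called rose and fell in the same fits, so these counts alone say little about the members. Between the CRY lines the highest count was a smaller share of the members than of all tested genes. Core medians ranged from -0.70 to -0.12, from -0.61 to -0.061 and from -0.18 to -0.044. Regulatory medians ranged from -0.37 to -0.058, from -0.34 to -0.039 and from -0.074 to -0.015, and the differences from -0.33 to -0.064, from -0.28 to -0.022 and from -0.13 to -0.028. In both comparisons with CPN-/-, the lowest medians came without CPN-/- replicate 1 and the highest without replicate 2. Without CPN-/- replicate 2, 7 and 15 of the 34 members were above 0 in CPN-/-CRY1 and CPN-/-CRY2. Among the genes given in every library, ranges that crossed 0 were, in CPN-/-CRY1, Psmd14 (-0.38 to 0.0040) and Psmb8 (-0.39 to 0.11), and between the CRY lines Psmb5 (-0.20 to 0.0040) and Psmd14 (-0.080 to 0.0035). In CPN-/-CRY2 they were Psmb5 (-0.65 to 0.059), Psmb6 (-0.65 to 0.021), Psmb7 (-0.55 to 0.035), Psmd4 (-0.47 to 0.0017), Psmd14 (-0.34 to 0.043), Psmb4 (-0.66 to 0.046) and Psma5 (-0.50 to 0.076). Why the CPN-/- libraries differ was not tested, and with 2 libraries per line and 1 colony per CRY protein the spread between colonies is unknown.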
